A study of Setaria italica with 18 samples.

Results

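The core clock genes of foxtail millet (Setaria italica) described here are 8 of the 29108 genes of the deposited expression table. Of these, 4 were taken by identifier, namely LHY (Seita.6G055700.v2.2), PRR1 (Seita.1G236100.v2.2), GI (Seita.5G129500.v2.2) and PCL1 (Seita.5G379100.v2.2), and identifiers are given without that ending from here on. The rest are the genes whose description holds the words response regulator-like, a search that finds 5 genes, PRR1 among them. They are PRR73 (Seita.9G445200), PRR37 (Seita.2G444300) and a pair that the table both names PRR95. The members of that pair are called PRR95-2G (Seita.2G286100) and PRR95-8G (Seita.8G040100) here, after the chromosome in their identifiers. By the same number, LHY lies on chromosome 6, PRR1 on chromosome 1, GI and PCL1 on chromosome 5 and PRR73 on chromosome 9. Of the 8 identifiers, 0 were found in the RefSeq gene table, so positions and sequences were not used here.

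Leaves of seedlings of 2 varieties, the salt-sensitive B175 and the salt-tolerant JK3, were taken after 0, 12 and 24 h in 75% artificial seawater. The 6 groups are called B0, B12, B24, J0, J12 and J24, with 3 libraries each, and the plants were grown in 12 h of light and 12 h of darkness. The study's methods name the second and the third leaf as the tissue and call the replicates biological, and the labels give the variety, the time and a replicate number. The methods also name a treatment with distilled water, but no library is labelled as water-treated at 12 or 24 h. At 12 h the time in seawater and the time of day have both moved on from 0 h, and the labels do not let them be told apart. The 0 h and 24 h libraries are 1 day apart by their labels and so nominally share a time of day, although the hour of sampling is not given in the sources used here. At 24 h a day in seawater, a day of growth and any difference in the hour of sampling cannot be told apart.

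The plant clock is a ring of genes that switch each other off in turn over the day. In Arabidopsis, the MYB factor LHY is made around dawn and represses genes of the evening, PRR proteins repress LHY one after another from morning to night, and the evening complex, in which PCL1 (also known as LUX) binds DNA, represses PRR genes and GI at night. GI is a large evening protein that steadies an F-box protein of the clock, acts in flowering and, in Arabidopsis, holds back a kinase of salt tolerance.

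Values are FPKM, the fragments of a gene scaled to its length and to the total of the library. The fragments assigned to genes, recovered from the steps of the FPKM values, ranged from 34738627 to 38798886 per library. Within groups, libraries correlated at 0.954 to 0.991 over genes on the log2 scale, and the lowest value involved B24 replicate 2. The 100 most abundant genes held 22.3 to 29.3% of all fragments at 0 h, 12.8 to 13.7% at 12 h and 19.7 to 25.9% at 24 h, and the median gene tested was 0.43 (B175) and 0.37 (JK3) higher on the log2 scale at 12 h than at 0 h. Median-ratio scaling moved those medians to 0.01 each, and calls of the clock genes that it changes are given beside the result. For the lists of related genes, not every such call is given. Every gene of the leaf marker lists was above 0 FPKM in at least 1 library, and so was every gene of the other marker lists. The mean summed FPKM of each leaf list was lower at 12 h than at 0 h in both varieties, as for the Rubisco small subunit with 4981 in B0 and 848 in B12, and 2146 in J0 and 381 in J12. Markers of dividing cells were higher, as for cyclin-B with 134 in B0 and 263 in B12, and 179 in J0 and 278 in J12. For markers of other tissues, the summed FPKM of 4 genes described as Casparian strip proteins (root) lay between 26.8 and 112.2, and that of 8 knotted homeobox genes (meristem) between 394 and 854, with a lower mean at 12 h than at 0 h in both varieties. The part of this shift in the changes of the clock genes was not tested, and in such bulk leaf RNA fewer cells of a type and less RNA per cell cannot be told apart.

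LHY was among the most abundant transcripts of the leaf at 0 h and far down the ranking at 12 h, though not among the scarcest. In B0 its FPKM was 5499.7, 5779 and 5373, and in J0 it was 6147, 5889.8 and 6731. In B12 the 3 libraries held 6.33, 5.46 and 2.37, and in J12 they held 6.10, 3.49 and 4.21. All 0 h libraries thus stood far above all 12 h libraries, with no overlap in either variety. By mean FPKM LHY was the gene at rank 9 in B0 and rank 7 in J0, and at rank 15048 in B12 and 15149 in J12. Single 12 h libraries had 24014 to 24826 genes above 0. It took 1.21 to 1.51% of all gene fragments at 0 h. At 12 h it took 0.000532 to 0.00142%, where the lowest share, 204 fragments in B12 replicate 3, has a 95% Wilson interval of 0.000464 to 0.00061% that covers counting error only.

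The mean FPKM of LHY was 1176 times higher in B0 than in B12 and 1360 times higher in J0 than in J12. On the scale of log2(FPKM + 1), on which all fold changes here are given, the change was -10.00 (SE 0.27, adjusted p = 2.56e-13, limma with Benjamini-Hochberg adjustment) in B175. In JK3 it was -10.15 (SE 0.27, adjusted p = 2.43e-13, limma with Benjamini-Hochberg adjustment). In both varieties this was the largest fall among the 23824 genes tested. The rise that followed, from 12 to 24 h, was the largest rise among the same genes in both varieties, at 9.40 (SE 0.27, limma adjusted p = 5.06e-13) in B175 and 9.16 (SE 0.27, limma adjusted p = 8.7e-13) in JK3. These 2 comparisons share the 12 h libraries, so the fall and the rise are not independent of each other.

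**Figure D1:**
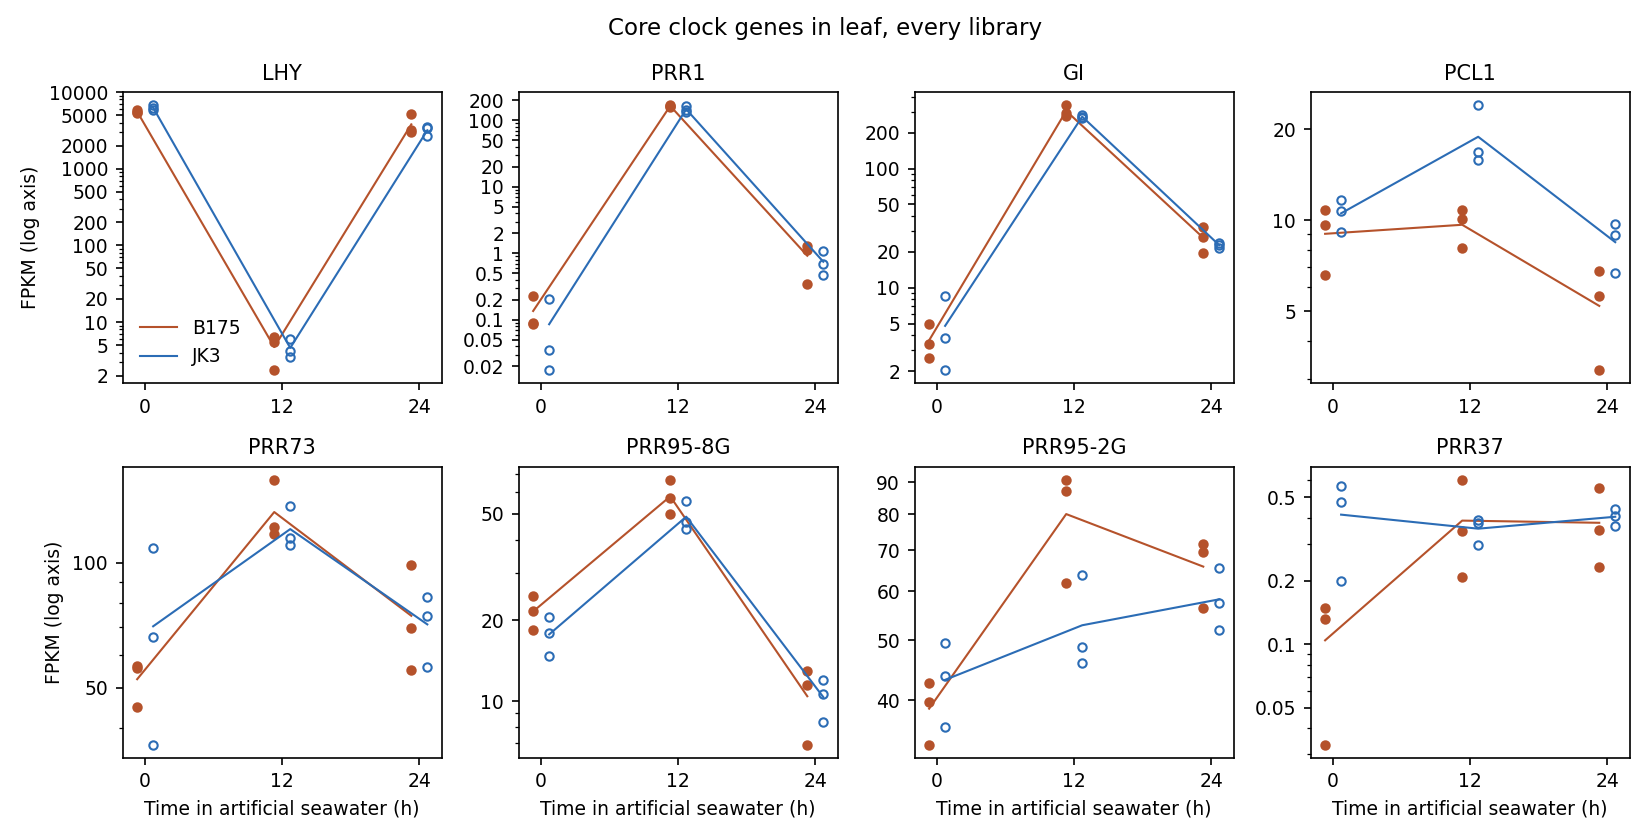
FPKM of the 8 core clock genes (vertical log axes, a different range in each panel) against the time in artificial seawater in hours, with 1 point per library (filled, B175; open, JK3) and lines through the group means. LHY drops from 5373 or more at 0 h to 6.33 or less at 12 h and climbs again, PRR1 and GI do the opposite, and the other 5 genes move much less.

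PRR1, the clock protein that is called TOC1 in Arabidopsis and represses LHY there, had the mirrored pattern. In B12 its FPKM was 164.7, 160.3 and 168.6, and in J12 it was 143.6, 162.9 and 133.3. At 0 h the values were 0.230, 0.0905 and 0.0871 in B0 and 0.205, 0.0351 and 0.0176 in J0. These low values rest on very few fragments, 13, 5 and 5 in B0 and 11, 2 and 1 in J0. As a share of the library's fragments, the 12 h level was 1211 times that of 0 h in B175 (exact 95% interval 807 to 1911) and 1755 times in JK3 (1046 to 3211), and both intervals cover counting error only. These ratios lean on the 0 h library with the most fragments: they were 1854 without B0 replicate 1 and 5563 without J0 replicate 1, the latter beyond the printed interval. On the log2 scale PRR1 rose by 7.19 (SE 0.20, limma adjusted p = 2.56e-13) in B175, the rise at rank 21 of 23824. In JK3 it rose by 7.09 (SE 0.20, limma adjusted p = 3.8e-13), the rise at rank 13. From 12 to 24 h the log2 fold change of PRR1 was -6.47 (limma adjusted p = 1.01e-12) in B175 and -6.41 (limma adjusted p = 1.21e-12) in JK3.

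GI moved with PRR1 in direction but from a higher level at 0 h. Its FPKM was 3.37, 4.94 and 2.55 in B0 and 2.04, 8.57 and 3.75 in J0. At 12 h it was 340.4, 279.1 and 294.7 in B12 and 279.5, 272.2 and 267.3 in J12, so that the lowest 12 h library stood above the highest 0 h library by a wide margin. The mean rose 84.2 times in B175 and 57.0 times in JK3, and 94.3 times in JK3 without J0 replicate 2, the library at 8.57, so the order of the varieties rests on that library. On the log2 scale the rise was 6.08 (SE 0.30, limma adjusted p = 1.47e-10) in B175 and 5.73 (SE 0.30, limma adjusted p = 3.37e-10) in JK3. From 12 to 24 h the change was -3.51 (limma adjusted p = 1.2e-07) in B175 and -3.53 (limma adjusted p = 1.23e-07) in JK3, and its mean FPKM was 11.6 and 11.99 times lower.

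Within libraries, LHY stood above PRR1 and GI at 0 and 24 h and below both at 12 h, while GI stood above PRR1 throughout. On the log2 scale of FPKM, LHY exceeded PRR1 by 15.47 ± 0.80 (SD, n = 3) in B0 and 16.92 ± 1.87 in J0. At 12 h PRR1 exceeded LHY, with a log2 ratio of LHY to PRR1 of -5.24 ± 0.79 in B12 and -5.03 ± 0.50 in J12. GI and PRR1 came close to each other at 12 h only, where the log2 ratio of GI to PRR1 was 0.88 ± 0.14 in B12 and 0.90 ± 0.14 in J12, compared with 4.84 to 6.33 as group means at 0 and 24 h.

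PCL1 (Seita.5G379100) did not take part in that swing. Its FPKM was 9.69, 6.61 and 10.8 in B0 and 10.8, 8.08 and 10.1 in B12, which overlap. In JK3 it was 9.18, 11.7 and 10.8 in J0 and 15.8, 24.02 and 16.8 in J12, and these groups did not overlap. The log2 fold change from 0 to 12 h was 0.11 (95% interval -0.41 to 0.62) in B175, where the test was not passed, and 0.77 (limma adjusted p = 0.0139) in JK3, below the fold limit of 1. After median-ratio scaling the same changes were -0.48 and 0.23, so the sign in B175 depended on the scaling. At 24 h the FPKM was 5.62, 3.201 and 6.82 in B24 and 6.72, 8.95 and 9.75 in J24, below every 12 h library of the same variety. The change from J12 to J24 was -1.06 (SE 0.24, limma adjusted p = 0.00189). It passed the fold limit narrowly, and the call was lost after median-ratio scaling (-0.59), without J12 replicate 2 (-0.89) and without J24 replicate 1 (-0.92).

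A second gene named PCL1 in the table, Seita.5G468100, also on chromosome 5 and not one of the 8, had the swing that Seita.5G379100 lacked. Its FPKM was 324, 344 and 372 in B12 and 321, 309 and 256 in J12. It was 0.103, 0.0353 and 0.170 in B0 and 0.254, 0.171 and 0 in J0, which together rest on 9 and 12 fragments. The log2 fold change of Seita.5G468100 was 8.30 (SE 0.26, limma adjusted p = 1.11e-12) in B175 and 8.02 (SE 0.26, limma adjusted p = 1.54e-12) in JK3. At 12 h its mean FPKM of 347 in B12 compared with 9.67 for Seita.5G379100 in the same libraries. Whether reads were shared between the genes of this name is not given in the sources used here.

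**Figure D2:**
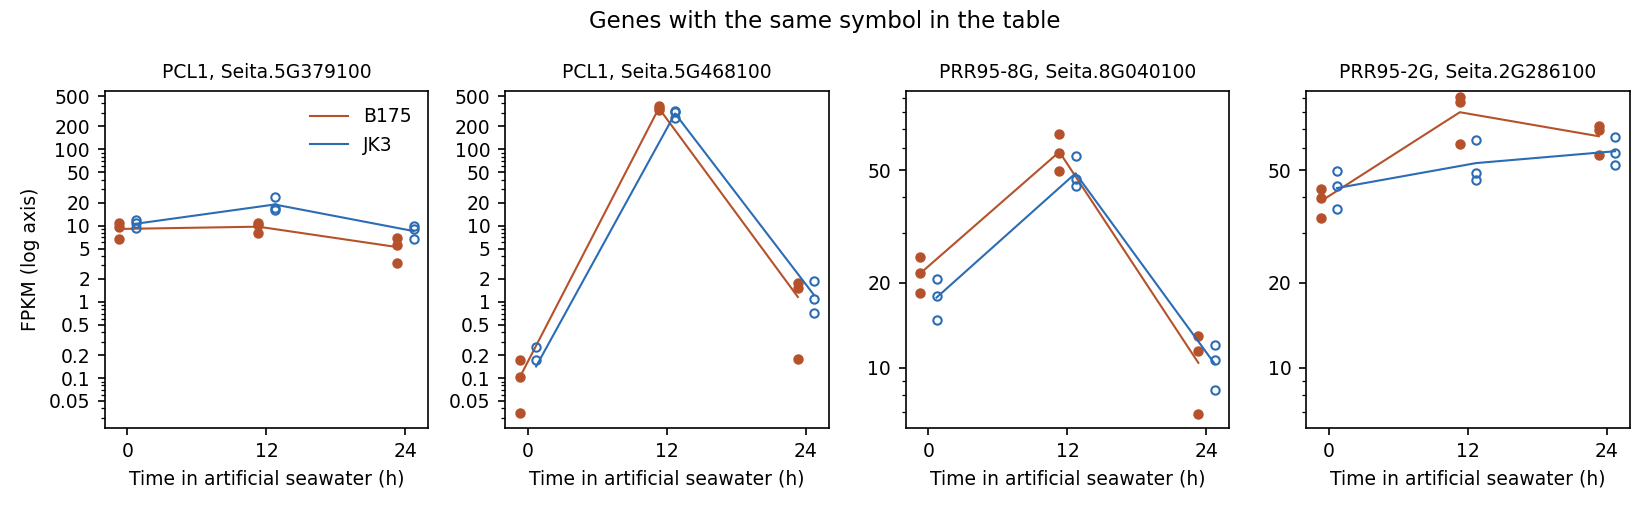
FPKM (log axes, the same range within each pair of panels) against the time in artificial seawater in hours for the genes that share a symbol, PCL1 on the left and PRR95 on the right, with 1 point per library and lines through group means. Seita.5G468100 climbs from 0.254 or less at 0 h to 256 or more at 12 h while Seita.5G379100 stays between 3.201 and 24.02. The J0 library of Seita.5G468100 that is listed at 0 cannot be drawn on a log axis.

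PRR73, a relative of the Arabidopsis gene PRR7, was higher at 12 h. Its FPKM was 55.9, 56.5 and 44.9 in B0 and 158.2, 121.7 and 117.2 in B12, with no overlap. In J0 it was 36.5, 108.3 and 66.1, the widest spread of any group, and in J12 it was 114.4, 136.8 and 110.1. Its change was 1.31 (SE 0.30, limma adjusted p = 0.00117) in B175 and 0.90 (limma adjusted p = 0.0183) in JK3. Median-ratio scaling lowered the B175 value to 0.67 (limma adjusted p = 0.101) and the JK3 value to 0.33 (limma adjusted p = 0.445), and neither is called. Without J0 replicate 2, the library at 108.3, the JK3 value was 1.27 (limma adjusted p = 0.000947) and was called. Leaving out other single libraries lowered the JK3 value to as little as 0.50, with a limma adjusted p of up to 0.12. From 12 to 24 h the change was -0.85 in B175 (limma adjusted p = 0.0261) and -0.77 in JK3 (limma adjusted p = 0.0433), and neither passed the fold limit. Without B24 replicate 2 the former was -1.07 (limma adjusted p = 0.0115), and was called. After median-ratio scaling the changes from 12 to 24 h were -0.38 (limma adjusted p = 0.393) in B175 and -0.26 (limma adjusted p = 0.583) in JK3.

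The PRR95 genes, relatives of the day-time PRR genes of Arabidopsis, behaved differently from each other. PRR95-8G had an FPKM of 24.7, 18.4 and 21.6 in B0, 57.4, 49.7 and 66.8 in B12 and 6.88, 11.5 and 12.9 in B24. JK3 had 20.5, 14.7 and 17.9 at 0 h, 55.9, 43.8 and 46.3 at 12 h and 8.38, 12.02 and 10.6 at 24 h. None of the 3 time points overlapped with another in either variety, with 12 h highest and 24 h lowest. The rise to 12 h was 1.38 (SE 0.21, limma adjusted p = 3.08e-05) in B175 and 1.41 (SE 0.21, limma adjusted p = 3.35e-05) in JK3, and after median-ratio scaling 0.75 and 0.86, which miss the fold limit. The change from 12 to 24 h was -2.40 in B175 (limma adjusted p = 1.49e-07) and -2.14 in JK3 (limma adjusted p = 5.93e-07).

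PRR95-2G changed less, and passed the test in B175 alone. Its FPKM was 39.7, 33.9 and 42.7 in B0, 87.2, 62.0 and 90.9 in B12 and 56.5, 69.5 and 71.5 in B24. JK3 had 43.8, 36.3 and 49.5 at 0 h, 63.9, 46.0 and 48.8 at 12 h and 65.4, 57.5 and 51.9 at 24 h, with overlap between J0 and J12. The log2 fold change from 0 to 12 h was 1.01 (SE 0.18, limma adjusted p = 0.000131) in B175 and 0.28 (limma adjusted p = 0.197) in JK3. The B175 value sits at the fold limit. It was 0.37 (limma adjusted p = 0.13) after median-ratio scaling and 0.91 to 0.94 without B0 replicate 2, B12 replicate 1 or B12 replicate 3, and was not called in any of these. Within libraries, the log2 ratio of PRR95-2G to PRR95-8G was 0.85 ± 0.15 (SD, n = 3) in B0 and 1.29 ± 0.19 in J0. It was 0.46 ± 0.14 in B12 and 0.11 ± 0.07 in J12, and 2.70 ± 0.30 in B24 and 2.50 ± 0.40 in J24, so that the pair was nearest to equal at 12 h and furthest apart at 24 h in both varieties.

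PRR37, a gene whose relatives in rice and sorghum delay flowering in long days, was barely detected. Its FPKM lay between 0.0333 and 0.604 over the 18 libraries, which is 3 to 52 fragments. The lowest group was B0, with 3, 13 and 12 fragments and a mean FPKM of 0.104 ± 0.062 (SD, n = 3), and the means of the other groups were 0.354 to 0.413. No comparison of PRR37 passed the test on the log2(FPKM + 1) scale, where its largest change among time points was 0.32 (B12 against B0, limma adjusted p = 0.0526). With a pseudocount of 0.1 that change was 1.22 (limma adjusted p = 0.023). The ratio of the fragment shares of PRR37 between B12 and B0 was 3.68, with an exact 95% interval for counting error of 2.40 to 5.81.

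Counted together, 6 of the 8 genes were called from B0 to B12, at an absolute log2 fold change above 1 and an adjusted p under 0.05, where 37.8% of all genes tested were called. They were LHY, which fell, as 9.81% of genes did, and PRR1, GI, PRR73 and both PRR95 genes, which rose, as 28.0% of genes did. After median-ratio scaling 3 of the 8 were called, LHY, PRR1 and GI, against 31.3% of all genes. From J0 to J12, 4 of 8 were called (31.6% of all genes), with LHY down (7.67% of all genes) and PRR1, GI and PRR95-8G up, as 5706 of the 23824 genes were. After scaling PRR95-8G was not called, which left 3 of 8 against 25.0% of all genes. From B12 to B24, 4 of 8 were called (26.6% of all genes), LHY upward (7.86%) and PRR1, GI and PRR95-8G downward (18.8%). From J12 to J24, 5 of 8 were called (26.0% of all genes), LHY upward (7.30%) and PRR1, GI, PRR95-8G and PCL1 downward (18.7%). The median log2 fold change of the 8 genes was 1.16 in B175 and 0.83 in JK3 from 0 to 12 h, beside 0.43 and 0.37 over all genes tested. The groups of 3 libraries did not overlap for 7 of the 8 genes between B0 and B12 (68.8% of all genes) and for 6 of the 8 between J0 and J12 (60.1% of all genes). With 3 libraries in each group, the smallest two-sided p of an exact permutation test is 0.1, so none was run.

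**Figure D3:**
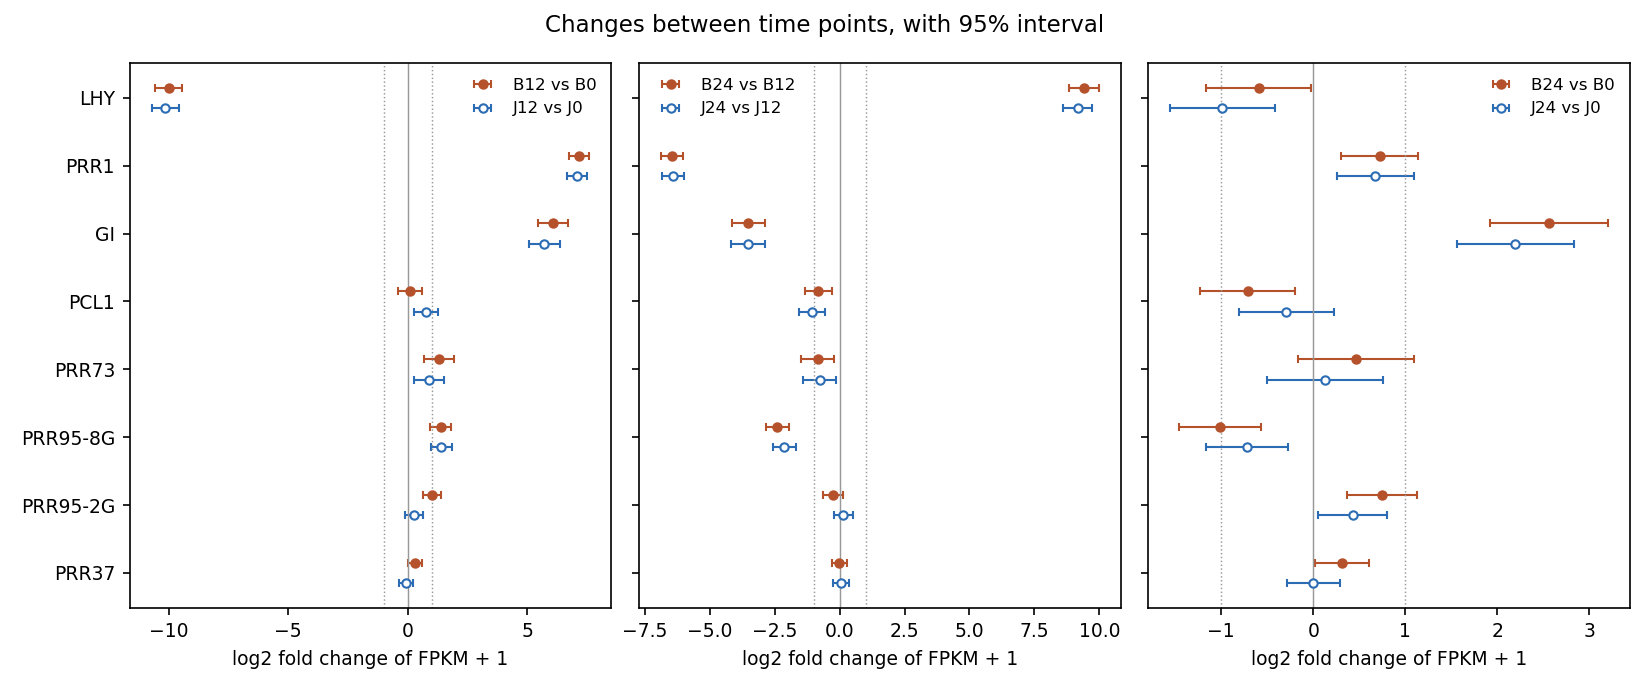
log2 fold change of FPKM + 1 with its 95% interval from limma for each clock gene (rows), from 0 to 12 h (left), 12 to 24 h (middle) and 0 to 24 h (right), each with its own horizontal range, in B175 (filled, B) and JK3 (open, J). Dotted lines mark the fold limits of 1 and -1. LHY, PRR1 and GI lie far outside them in the left and middle panels, while at 24 h against 0 h only GI lies clearly beyond.

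The comparison of 24 h with 0 h sets libraries of nominally the same time of day beside each other. Time in seawater, growth and the hour of sampling cannot be told apart in it. GI, the evening gene, had not returned to its 0 h level. Its FPKM was 19.6, 26.7 and 32.5 in B24 and 23.7, 22.9 and 21.7 in J24, all above the highest 0 h library at 8.57. The mean was 7.26 times that of 0 h in B175 and 4.75 times in JK3, or 7.86 times in JK3 without J0 replicate 2. On the log2 scale this was 2.57 (SE 0.30, limma adjusted p = 1.48e-05) in B175 and 2.1996 (SE 0.30, limma adjusted p = 0.000754) in JK3, and GI was called in both. Without B24 replicate 2 the B175 value was 2.54.

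LHY, the morning gene, lay lower at 24 h than at 0 h. Its FPKM was 3031, 5176 and 3164 in B24 and 3469.8, 3381 and 2668 in J24, below every 0 h library of the same variety. The highest value, 5176, was that of B24 replicate 2. The mean was 0.683 of the 0 h mean in B175 and 0.507 in JK3. The log2 fold change was -0.99 (SE 0.27, limma adjusted p = 0.0215) in JK3, just inside the fold limit, and -1.05 (limma adjusted p = 0.0207) after median-ratio scaling, where it was called. In B175 it was -0.59 (limma adjusted p = 0.102), and without B24 replicate 2 it was -0.84 (limma adjusted p = 0.019). Removal of a different library shrank the B175 value to as little as -0.46, with a limma adjusted p of up to 0.302. The JK3 value lay between -1.06 and -0.87 in fits that lacked 1 library, with a limma adjusted p of up to 0.0961.

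PRR1 was above its 0 h level at 24 h, though still low. In B24 its FPKM was 1.13, 0.351 and 1.28 (61, 19 and 73 fragments), and in J24 it was 0.465, 0.6999 and 1.08 (24, 40 and 62 fragments). The lowest of these, 0.351, was again B24 replicate 2, and all stood above the 0 h libraries of their variety. The ratio of its fragment shares was 6.81 in B175 (exact 95% interval 4.38 to 11.1) and 9.06 in JK3 (5.21 to 17.1), for counting error only, and was 10.4 without B0 replicate 1 and 28.7 without J0 replicate 1. On the log2(FPKM + 1) scale, which compresses such low values, the change was 0.72 (limma adjusted p = 0.0105) in B175 and 0.68 (limma adjusted p = 0.0299) in JK3, below the fold limit. With a pseudocount of 0.1 it was 2.01 (limma adjusted p = 0.00233) and 2.26 (limma adjusted p = 0.00357), and was called in both.

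Of the other genes, PRR95-8G was lower in B24 than in B0, with a ratio of means of 0.483 and a log2 fold change of -1.02 (SE 0.21, limma adjusted p = 0.00169). The call was lost without B0 replicate 1 (-0.92) or B24 replicate 1 (-0.77). In JK3 the change was -0.72 (limma adjusted p = 0.0287). PRR95-2G moved the other way, by 0.75 in B175 (limma adjusted p = 0.00453) and 0.43 in JK3 (limma adjusted p = 0.112). In all, 2 of the 8 genes were called between B0 and B24, where 16.2% of all genes tested were called, and 1 of 8 between J0 and J24, where 7.42% were. The median log2 fold change of the 8 was 0.39 in B175 and 0.06 in JK3, beside 0.08 and 0.03 over all genes.

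Few differences between the salt-sensitive and the salt-tolerant variety passed a test in these genes. At 0 h the log2 difference of JK3 from B175 ranged from -0.27 to 0.35 over the 8 genes, with 95% intervals that reached from -0.72 to 0.92, and 0 of 8 were called, where 12.8% of all genes tested were. LHY was higher in every J0 library than in every B0 library, by 0.17 (limma adjusted p = 0.696, from a spread pooled over all 6 groups). By an unadjusted p under 0.05, 1 of the 8 would pass. That gene was PRR37, at 0.35 (limma adjusted p = 0.0714), and with a pseudocount of 0.1 it was 1.30 higher in J0 (limma adjusted p = 0.0364) and was called. Its share of fragments was 4.01 times that of B0 in J0 (exact 95% interval 2.63 to 6.30, for counting error only and not for the spread between libraries).

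At 12 h PCL1 and PRR95-2G had an adjusted p under 0.05 between the varieties, in opposite directions and narrowly. PCL1 was higher in J12, where all 3 libraries (15.8 to 24.02) stood above those of B12 (8.08 to 10.8), by 0.88 on the log2 scale (95% interval 0.37 to 1.40, limma adjusted p = 0.0285). PRR95-2G was lower in J12, with a difference of -0.58 (limma adjusted p = 0.0491), and its highest J12 library (63.9) overlapped the lowest of B12 (62.0). Leaving out 1 library gave a limma adjusted p of up to 0.145 for PCL1, above 0.05 in every case but that of J12 replicate 1, and of up to 0.19 for PRR95-2G, above 0.05 except without B12 replicate 2 or J12 replicate 1. After median-ratio scaling the adjusted p in limma was 0.0284 for PCL1 and 0.0685 for PRR95-2G. Neither passed the fold limit, so 0 of 8 were called against 6.35% of all genes. At 24 h 0 of 8 were called against 4.55% of all genes, and 1 of the 8 had an unadjusted p under 0.05. That was PCL1, at 0.64 higher in J24 (limma adjusted p = 0.128), and 0.38 (limma adjusted p = 0.414) without B24 replicate 2.

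The change over time itself was compared between the varieties by the interaction of variety and time. From 0 to 12 h the interaction of the 8 genes ranged from -0.73 to 0.66, with 95% intervals that reached from -1.31 to 1.39, and 0 passed an adjusted p of 0.05 in limma, where 5.87% of all genes did and where 1 of the 8 had an unadjusted p under 0.05. The lowest value was that of PRR95-2G, -0.73 (limma adjusted p = 0.106), and without B12 replicate 2 it was -0.90 (limma adjusted p = 0.0495). From 0 to 24 h the interaction ranged from -0.39 to 0.42, 0 of 8 passed, against 2.52% of all genes, and 0 of 8 had an unadjusted p under 0.05. LHY, PRR1 and GI, whose changes from 0 to 12 h were at least 5.73 in size in either variety, had no interaction past the test.

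Other genes of the clock pathway, taken by their descriptions, were called at 12 h in part, and their counts are to be read against all 23824 genes tested, of which 28.0% rose and 9.81% fell from B0 to B12, and 5706 rose and 7.67% fell from J0 to J12. Of 7 genes of the evening complex list, which includes the second PCL1, 5 rose and 1 fell in B175, and 4 rose and 1 fell in JK3. After median-ratio scaling 4 and 3 rose, where 31.3% (B175) and 25.0% (JK3) of all genes were called in either direction. The largest rises after that of the second PCL1 were those of the ELF4-like genes EFL4 (Seita.2G195800), by 2.88 in B175 and 2.21 in JK3, and EFL4 (Seita.8G200900), by 2.22 and 2.26. A pair of genes named ELF3-2, after the scaffold protein of that complex, was split: Seita.3G121000 rose by 1.89 in B175 and 1.05 in JK3, and Seita.5G204600 changed by -1.58 and -1.57. The first of these JK3 values sits at the fold limit, and after median-ratio scaling it was 0.50 (limma adjusted p = 0.0246), which is not called. Of 3 blue-light F-box genes 1 was called in each variety, Adagio-like protein 3 (Seita.8G146900, named after the Arabidopsis flowering regulator also known as FKF1). It rose by 5.67 in B175 (limma adjusted p = 2.24e-12) and 5.18 in JK3 (limma adjusted p = 7.59e-12).

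Among 10 MYB relatives of LHY, the REVEILLE genes, 5 fell and 2 rose in B175 and 4 fell and 2 rose in JK3 from 0 to 12 h, so that the share that rose was no higher than that of all genes. After median-ratio scaling 6 fell and 1 rose in B175, and 5 fell and 1 rose in JK3. By then 31.3% (B175) and 25.0% (JK3) of all genes were called in either direction. RVE2 (Seita.4G288100) changed by -7.04 in B175 and -7.24 in JK3, and RVE3 (Seita.1G272700) by -6.57 and -5.95. RVE1 was split between a gene on chromosome 1, Seita.1G275400, which changed by -5.72 and -6.21, and a gene on chromosome 7, Seita.7G212900, which rose by 7.82 and 6.24. The latter was the 1 gene of this list with a called interaction from 0 to 12 h (-1.58, limma adjusted p = 0.0213). Both LNK genes that could be tested, coactivators that work with REVEILLE proteins in Arabidopsis, fell in both varieties. LNK1 (Seita.9G380600) had a mean FPKM of 938 in B0, 32.6 in B12 and 769 in B24, and of 869 in J0, 33.5 in J12 and 686 in J24. Its log2 fold change from 0 to 12 h was -4.81 (limma adjusted p = 1.89e-12) in B175 and -4.66 (limma adjusted p = 2.46e-12) in JK3.

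Of 10 other regulators, 3 rose and 0 fell in each variety, a share near that of all genes. After median-ratio scaling 2 rose in each, where 31.3% (B175) and 25.0% (JK3) of all genes were called in either direction. CKB4 (Seita.9G318000) and CKA4 (Seita.9G080800) rose by 2.53 and 2.09 in B175 and by 2.40 and 2.72 in JK3. They are described as a putative beta subunit and a chloroplastic alpha subunit of casein kinase II. That kinase modifies a close relative of LHY in Arabidopsis, and whether these subunits act in the clock was not tested. At 24 h against 0 h, 16.2% of all genes were called in B175. In these pathway lists the calls were ELF3-2 (Seita.5G204600, -1.24), RVE3 (Seita.1G272700, -1.19) and RVE1 (Seita.7G212900, 1.03). The last sits at the fold limit, and after median-ratio scaling it was 0.998 and not called. After that scaling 1 of the 10 other regulators was called downward. In JK3, where 7.42% of all genes were called, limma called 0 of the 32 tested genes of the 5 lists. Of these 32, 13 had an unadjusted p under 0.05 in limma, and 2 were called after median-ratio scaling. The share of all genes that met either of these criteria is not given here, so neither count is read as a result about the lists.

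The canonical two-component response regulators, to which PRR proteins are related in sequence and which act in cytokinin signalling, were mostly called downward where they were called at 12 h. Of 16 tested of 22 listed, 8 fell and 0 rose from B0 to B12 (9.81% of all genes fell), and 8 fell and 1 rose from J0 to J12 (7.67% of all genes fell). After median-ratio scaling 9 fell and 0 rose in each variety, where 31.3% (B175) and 25.0% (JK3) of all genes were called in either direction. The share of all genes that fell after scaling is not given here. RR6 (Seita.3G019000) changed by -3.28 in B175 and -2.22 in JK3, and RR9 (Seita.7G318100) by -2.89 and -2.64. At 24 h 4 of the 16 were called below 0 h in each variety, where 1435 of the 23824 genes were in B175 and 491 in JK3, such as RR2 (Seita.1G195000), at -1.81 (limma adjusted p = 0.000212) in B175 and -1.71 (limma adjusted p = 0.00213) in JK3. In B175 2 of the 16 were called above 0 h, RR1 (Seita.7G108800, 1.25, limma adjusted p = 0.0145) and EHD1 (Seita.9G231000, 1.10, limma adjusted p = 0.000404), and in JK3 0 were. EHD1, which promotes flowering in rice, was the 1 gene of the list with a called interaction, -1.27 from 0 to 12 h (limma adjusted p = 0.0113) and -1.27 from 0 to 24 h (limma adjusted p = 0.0183).

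**Figure D4:**
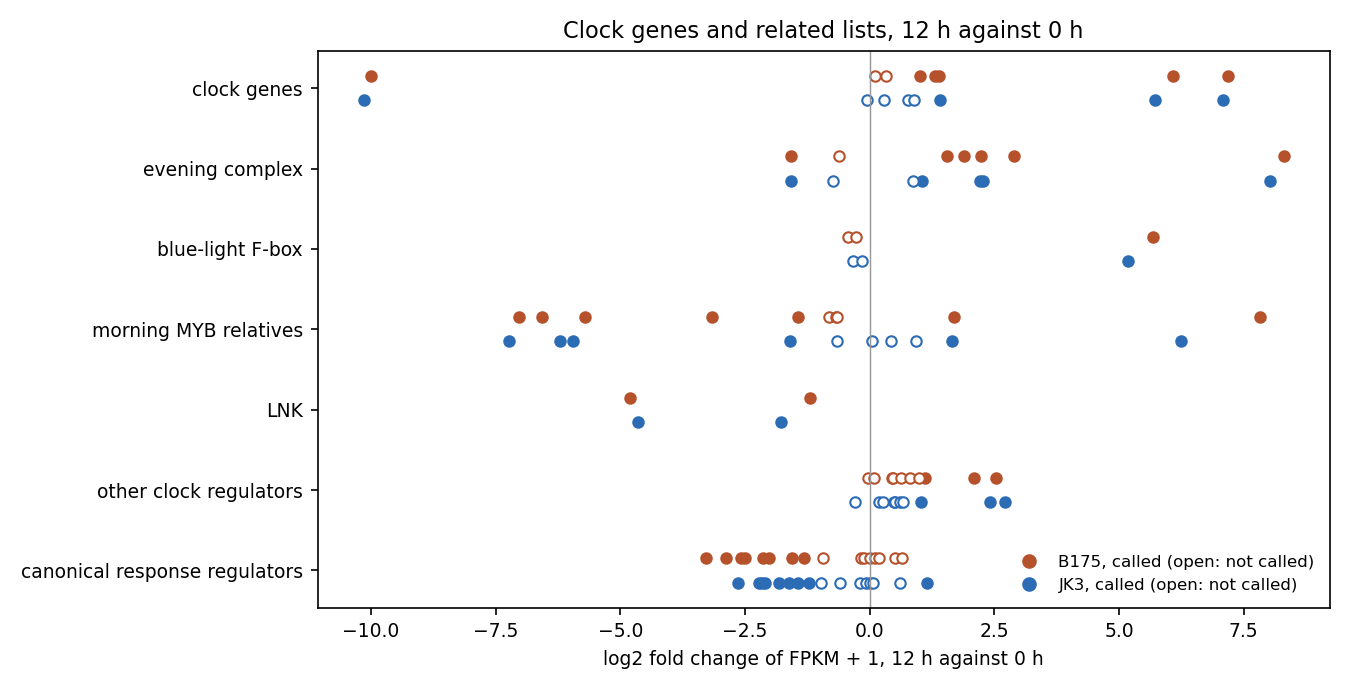
log2 fold change of FPKM + 1 from 0 to 12 h (horizontal axis) for each tested gene of the clock genes and of 6 related lists (rows), in B175 (upper points) and JK3 (lower points), filled where the gene was called and open where it was not. The clock genes, evening complex and morning MYB relatives spread to both sides, while the called canonical response regulators lie below 0 except for 1 in JK3.

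The genes whose pattern came nearest to that of each of the 4 listed genes were found among 19168 genes by the root mean square distance between centred log2(FPKM + 1) values over the 18 libraries. The nearest to LHY were HCF173 (Seita.1G093200, distance 1.06), Seita.3G182400 (1.19) and a dynein light chain gene (Seita.2G352400, 1.27). HCF173 had a mean FPKM of 969 in B0, 2.32 in B12 and 570 in B24, and JK3 had 505, 1.09 and 508 at the same times. The nearest to PRR1 were closer in distance, Seita.4G153900 (0.266), Seita.3G223200 (0.328) and COR27 (Seita.9G515800, 0.344). COR27, named for a cold-regulated protein, had a mean FPKM of 0.617 in B0, 307 in B12 and 1.88 in B24. GI had HSFC1B (Seita.5G307400, 0.539), CATHB2 (Seita.8G000400, 0.565) and PSRP1 (Seita.9G004600, 0.567) as its nearest genes, and PCL1 had HCF152 (Seita.1G144000, 0.193), ARF21 (Seita.6G212000, 0.254) and AHL1 (Seita.6G084100, 0.255). Such distances are small between genes that vary little, so those of PCL1 cannot be set directly beside those of LHY or PRR1. PCL1 was also 0.571 from the barely detected PRR37. Among the 8 genes themselves the smallest distance, 0.379, was that between PRR95-2G and PRR37, which both varied little on this scale, and the largest, 7.80, was that between LHY and PRR1. PRR1 and GI were 1.27 apart.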

How the data were processed

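Leaf RNA was sequenced in 18 libraries. The deposited table, made by the authors, gives FPKM of 29108 genes with identifiers, symbols and descriptions, already normalized for gene length and library total. The submitters' processing notes name fastp, HISAT2, HTSeq, DESeq2, R 3.2.0 and the build mm10, which is a mouse build, while the identifiers are of foxtail millet. How they were used, versions of the other tools and the use of strand are not given in the sources used here. Columns were matched to libraries by name, and 0 columns of values stayed unmapped.

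Whole fragments were recovered from the steps between FPKM values, for all genes of the table. They are known up to a factor common to the libraries of a gene, taken as the smallest that fits. They gave depth, counting intervals and 1 alternative test. The gene lengths they imply are mostly multiples of 3 (96.7% of whole lengths), so lengths are coding lengths.

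The 23824 genes whose FPKM averaged 0.1 or more, all 8 clock genes among them, were fitted as log2(FPKM + 1) in limma 3.58.1 (R 4.3.3), with 1 mean per group, all 18 libraries and a variance trend. Tests were two-sided with p adjusted by Benjamini and Hochberg's method over these genes, and calls needed an absolute log2 fold change above 1 and an adjusted p under 0.05, in the interaction the latter alone. The methods of the study name that fold limit and no test. Fold changes of low genes are understated by the pseudocount of 1. The p-values measure the spread between the 3 libraries within groups, pooled over all 6 groups into 1 value per gene. That value is drawn toward the variance trend, so it is not the spread of the compared groups alone. The steps were tested on simulated data. Other steps used Python 3.11.15 with pandas 2.3.3, numpy 2.4.6, scipy 1.17.1 and matplotlib 3.10.9.

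The clock genes, the lists and the tests were chosen with earlier results of these data known. All 8 genes are described, with each library's value where a group mean reached 1 FPKM. Genes named from the lists are among the 3 called genes of largest change of their list in at least 1 comparison, and their values in other comparisons may be given. List terms were matched as whole words, since terms such as LUX and CCA1 also occur inside other words. Alternatives were median-ratio scaling, quantile normalization, a smaller pseudocount of 0.1, no filter or one at an average of 1 FPKM, a block for replicate number, fits of the compared groups alone, leaving out each library and, added after the data were seen, limma voom on recovered fragments and ratios of means without each library. Libraries of the same group differed by more than counting noise (a chi-square of at least 28.9 per gene).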

Additional observations from a re-analysis of the deposited data

How the results depend on the processing

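Over 1317 values of single clock genes under the alternatives, 1282 kept their direction where called and their side of the threshold, 16 lost a call, 19 gained one and 0 reversed, and 55 changed sign with no call on either side. LHY, PRR1 and GI kept their calls between 0 and 12 h and between 12 and 24 h under every alternative run. From B0 to B12 the count of called genes went from 6 to 3 under both median-ratio scaling and quantile normalization. Over all alternatives that count ranged from 3 to 7, and from 5 to 6 with 1 library left out. The count ranged from 3 to 5 from J0 to J12, and from 4 to 5 both from B12 to B24 and from J12 to J24. From B0 to B24 the count went from 2 to 4 with a pseudocount of 0.1 and to 4 with limma voom, through PRR1 and PRR37. From J0 to J24 it went from 1 to 2 with a pseudocount of 0.1 and with limma voom, through PRR1, and to 2 under median-ratio scaling and quantile normalization, through LHY. Between J0 and B0 it went from 0 to 1, PRR37, with a pseudocount of 0.1 and with limma voom. Leaving out 1 library gave counts of 1 to 2 from B0 to B24 (1 without B0 replicate 1 or B24 replicate 1), 1 to 2 from J0 to J24 (2 without J0 replicate 2, J24 replicate 1 or J24 replicate 2) and 0 to 1 in the interaction from 0 to 12 h (1 without B12 replicate 2). Libraries of the same replicate number did not deviate together in a way that pairs them (mean correlations of -0.06 to 0.20 over the 9 comparisons), and with the replicate number as a block 6 genes were called from B0 to B12, as without it, and no other count changed. The low FPKM of PRR37 and of PRR1 at 0 h limits what these libraries can show of either gene.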
